A study of Arabidopsis thaliana with 3 samples.

Results

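The genes described here are the Aux/IAA and ARF genes of the auxin response, a list of 44 Arabidopsis thaliana loci (29 Aux/IAA and 15 ARF genes) among 27444 protein-coding genes of the nuclear annotation. The list was set by locus name and used no measured value, and its ARF loci are ARF1 to ARF11 and ARF16 to ARF19. For each gene, the accessible sites deposited for each library were taken from 3000 bp upstream of the transcription start site (TSS) to the gene end. The signal of a gene is the mean read count of windows centred from 1000 bp upstream to 400 bp downstream of the TSS, given as a fold of the mean window count of the library. The TSS is the outermost start that RefSeq annotates for the gene.

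The data comprised 3 ATAC-seq libraries of 1 group, which were made from Col-0 roots at 14 days of age. ATAC-seq reads where the Tn5 transposase inserted sequencing adapters, and it inserts them mainly in open DNA. All plants carried the INTACT transgene, a single construct under the constitutive 35S promoter that puts a biotinylatable tag on the nuclear envelope, so that nuclei of the whole root are captured on streptavidin beads. There was no second tissue, genotype or treatment, and a value is therefore an average over all root cell types.

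Auxin is perceived by TIR1/AFB F-box proteins, which bind the degron of Aux/IAA proteins and send them to the proteasome. Aux/IAA proteins bind ARF transcription factors and recruit TOPLESS corepressors, so their loss releases the ARFs at promoters that hold auxin response elements. Many Aux/IAA genes are themselves induced by auxin through such elements, and in the root both families act in embryonic root formation, meristem size, gravitropism and lateral root formation. ARFs with a glutamine-rich middle region act as activators, and the others are classed as repressors.

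The TGTCTC and TGTCGG forms of the auxin response element were searched on both strands. Stretches that end just before the TSS, or lie in a site there, are printed for 6 members. They show the element where a site was found in all 3 libraries and where no such site was found. They are read 5′ to 3′ on the strand of the gene from the TAIR10.1 assembly in RefSeq, and capitals mark either form on either strand (GAGACA and CCGACA are the reverse complements). The first 4 lie in shared sites of IAA1 (chr4:8360716-8360995, + strand), IAA19 (chr3:5263708-5264000, + strand), IAA13 (chr2:14116090-14116322, - strand) and ARF19 (chr1:6633134-6633241, - strand). The last 2 are the 250 bases before the TSS of IAA20 (chr2:19307464-19307713, + strand) and ARF7 (chr5:7022180-7022429, - strand), where no site was found in all 3 libraries. At ARF7, library 2 alone had a site across the start (chr5:7022068-7022254), and the marked TGTCGG lies in it. None of the 6 stretches overlaps another annotated gene.
IAA1: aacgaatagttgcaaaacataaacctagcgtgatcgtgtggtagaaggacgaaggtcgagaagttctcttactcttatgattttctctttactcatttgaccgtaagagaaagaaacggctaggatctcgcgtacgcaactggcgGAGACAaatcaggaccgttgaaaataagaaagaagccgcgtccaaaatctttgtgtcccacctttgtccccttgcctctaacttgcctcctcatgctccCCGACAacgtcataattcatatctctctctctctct
IAA19: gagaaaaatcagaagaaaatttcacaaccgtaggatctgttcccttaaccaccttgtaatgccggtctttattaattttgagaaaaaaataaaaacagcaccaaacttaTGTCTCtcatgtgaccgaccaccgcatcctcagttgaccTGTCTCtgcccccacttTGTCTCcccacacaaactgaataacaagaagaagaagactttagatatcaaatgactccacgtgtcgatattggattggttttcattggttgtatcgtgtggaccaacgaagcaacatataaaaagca
IAA13: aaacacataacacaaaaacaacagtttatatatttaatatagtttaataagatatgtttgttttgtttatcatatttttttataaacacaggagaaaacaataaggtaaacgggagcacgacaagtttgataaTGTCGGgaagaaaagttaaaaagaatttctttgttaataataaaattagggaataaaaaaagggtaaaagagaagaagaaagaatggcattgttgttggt
ARF19: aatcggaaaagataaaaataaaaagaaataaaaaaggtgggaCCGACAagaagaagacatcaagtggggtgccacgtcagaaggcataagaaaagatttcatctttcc
IAA20: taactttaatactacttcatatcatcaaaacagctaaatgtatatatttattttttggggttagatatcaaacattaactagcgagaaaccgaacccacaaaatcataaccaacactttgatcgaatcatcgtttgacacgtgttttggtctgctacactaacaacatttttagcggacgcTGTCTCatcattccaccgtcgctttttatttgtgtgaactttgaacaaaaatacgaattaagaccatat
ARF7: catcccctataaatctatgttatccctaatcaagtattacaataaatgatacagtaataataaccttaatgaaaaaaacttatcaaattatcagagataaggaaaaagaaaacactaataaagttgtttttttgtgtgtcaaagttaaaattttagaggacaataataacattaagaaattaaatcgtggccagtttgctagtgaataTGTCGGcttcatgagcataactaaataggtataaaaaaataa

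IAA19, which acts in the bending growth of the hypocotyl, held 3 copies of TGTCTC, which began 184, 145 and 128 bp upstream of the TSS. IAA1 held 1 copy of each form, at 135 and 36 bp upstream. The elements of IAA13, ARF19, IAA20 and ARF7 began 100, 66, 69 and 42 bp upstream. An element was thus present both within a shared site and in stretches of low signal, as the values of IAA20 and ARF7 given further on show.

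The libraries held an estimated 9850039, 10223285 and 18130442 nuclear reads in libraries 1, 2 and 3, and 26404, 36033 and 34828 deposited sites. Each member had at least 73 estimated reads in its TSS region, which gives a counting error of 11.7% at that lowest value, so differences of a few percent in a single library are within counting error. ARF4 and IAA18 were the only members with empty windows in this region, at up to 12.5% of its windows. Library 2 gave the highest value for 31 of the 44 members, and library 3 the lowest for 22. The input of nuclei also differed, being smallest for library 1 and greatest for library 3 according to the supplement of the paper, and its part in the spread between libraries was not tested. Of 8 root markers, SCR, SHR and GL2 (37.5%) had a site found in all 3 libraries within the TSS region, against 45.8% of all protein-coding genes. PLT1, PLT2, WER, COBL9 and CASP1 had none. None of 6 flower and shoot markers had such a site. Their median signal was 0.731, against 1.34 for the root markers and 1.29 for all protein-coding genes.

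The auxin response genes were more accessible at their start than the median gene in all 3 libraries. The median signal over the 44 members was 1.61, 1.79 and 1.62 in libraries 1, 2 and 3, against 1.25, 1.34 and 1.27 over all protein-coding genes. The members covered most of the range of the genome, since their mean signals lay between 0.743 for IAA20 and 4.15 for IAA16. Of the 44 members, 11 were above the 90th percentile of protein-coding genes in each library (7 Aux/IAA and 4 ARF genes), while 7.62% of all protein-coding genes were. Another 2 members, IAA20 and IAA31, were below the 25th percentile in each library. By definition 25% of protein-coding genes lie below it in a single library, and their share below it in all 3 was not counted. A site found in all 3 libraries, called a shared site here, lay in the TSS region of 25 members (56.8%), against 45.8% of protein-coding genes. From 3000 bp upstream to the gene end, 35 members (79.5%) had a shared site, against 64.7% of protein-coding genes. When sites had to overlap reciprocally by 50% to count as shared, the TSS region of 20 members (45.5%) held one, against 33.8% of protein-coding genes, and the longer region of 32 members (72.7%) did, against 50.8%.

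**Figure D1:**
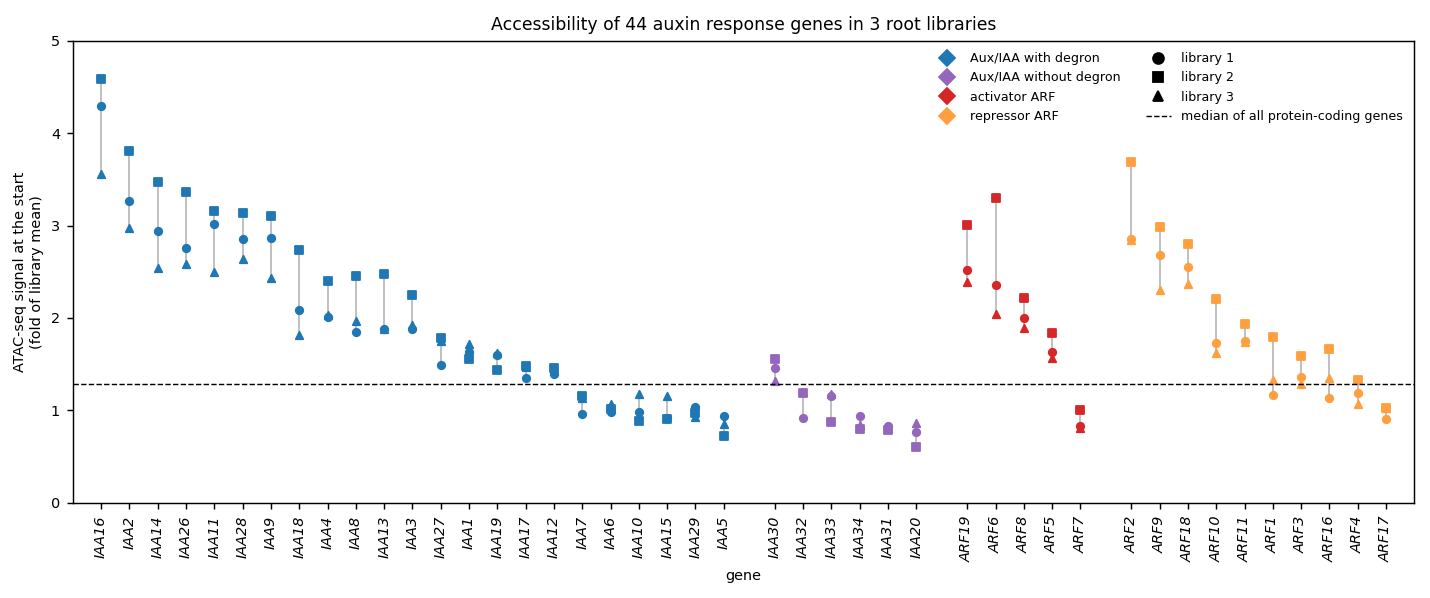
Signal from 1000 bp upstream to 400 bp downstream of the TSS (y axis, fold of the library mean) for each of the 44 genes (x axis), ordered by class and mean, with a symbol for each library and a line over their range. The dashed line is the median of all protein-coding genes (1.29, mean of the 3 libraries), and IAA16 stands highest while IAA20 stands lowest.

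The first comparison was that of the Aux/IAA genes with the ARF genes. The median signal of the 29 Aux/IAA genes was 1.49, 1.56 and 1.62 in libraries 1, 2 and 3, against 1.73, 1.93 and 1.62 for the 15 ARF genes. Aux/IAA genes were lower by a mean of 0.206 ± 0.190 (SD, n = 3 libraries), with a difference of -0.24, -0.38 and -0.0015, so the families were nearly equal in library 3. An exact two-sided sign-flip permutation test over libraries gave p = 0.25, the smallest p that 3 libraries allow, and no comparison here could reach 0.05. The difference was -0.36 ± 0.246 in the 400 bp before the TSS and -0.10 ± 0.0822 from 3000 bp upstream to the gene end. Both families were above the median of all protein-coding genes, with a mean of the library medians of 1.55 ± 0.0648 for Aux/IAA genes, 1.76 ± 0.159 for ARF genes and 1.29 ± 0.0495 for all protein-coding genes (SD, n = 3).

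The number of sites differed between the families in a direction that depended on whether sites were counted per gene or per kb. Aux/IAA genes had 1.76, 2.48 and 2.66 sites per gene in libraries 1, 2 and 3, against 2.53, 3.6 and 3.53 for ARF genes, a difference of -0.923 ± 0.176 (SD, n = 3, exact sign-flip permutation p = 0.25). ARF genes are longer, with a median length of 4.53 kb against 1.74 kb for Aux/IAA genes, and so is the searched region. Per kb of searched region, Aux/IAA genes had 0.362, 0.511 and 0.546 sites, against 0.342, 0.486 and 0.477 for ARF genes, a difference of 0.0381 ± 0.0272 in the other direction (exact sign-flip permutation p = 0.25, n = 3). With a search from 1000 bp upstream, the difference was 0.157 ± 0.0164 sites per kb and -0.43 ± 0.201 sites per gene. All protein-coding genes had 0.266, 0.365 and 0.353 sites per kb. The median GC content of the TSS region, which can affect Tn5 insertion and amplification, was 33.9% for Aux/IAA genes, 30.9% for ARF genes and 34.6% for all protein-coding genes, and its part in these values was not tested.

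**Figure D2:**
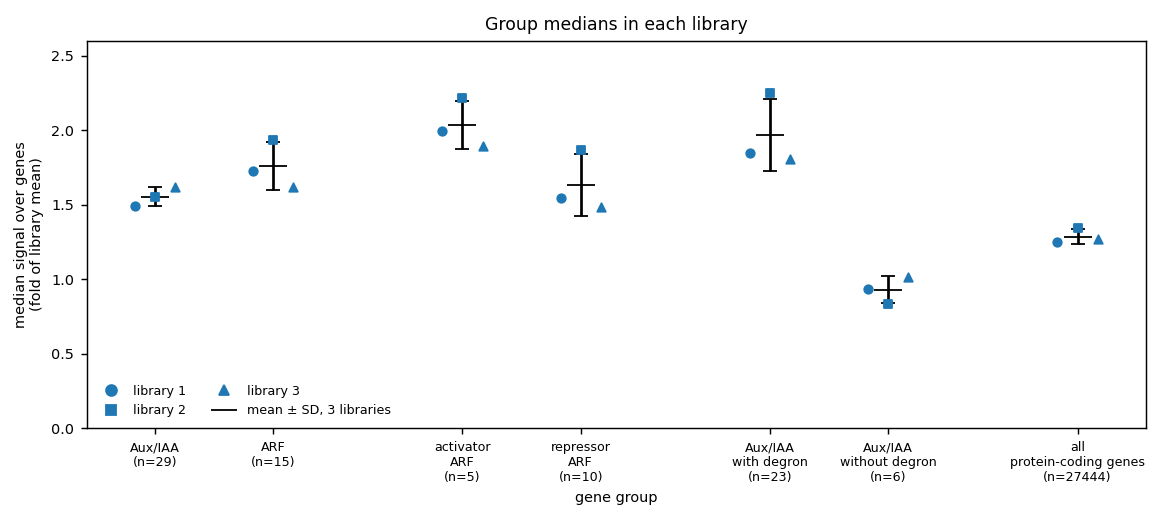
Median signal over the genes of each group (y axis, fold of the library mean) in each library, with the mean and SD of the 3 libraries as a black bar. Aux/IAA genes without the degron (0.929) lie below all protein-coding genes (1.29), and the other groups lie above them.

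Among the Aux/IAA genes, the repressors with the highest signal encode canonical proteins with a degron. IAA16 (AT3G04730) had the highest signal of all members, at 4.29, 4.59 and 3.56 in libraries 1, 2 and 3, and was above the 99th percentile in each. IAA2 (AT3G23030) had 3.27, 3.80 and 2.97, and IAA14 (AT4G14550), known as SOLITARY-ROOT because its stabilised form blocks lateral root initiation, had 2.94, 3.48 and 2.54. These 3 genes kept the same order in every library.

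IAA26 (AT3G16500), a protein that binds phytochrome and a viral replicase, had 2.75, 3.36 and 2.58. IAA11 (AT4G28640) had 3.02, 3.16 and 2.50. IAA28 (AT5G25890), which acts in the specification of lateral root founder cells, had 2.85, 3.14 and 2.64. The ranges of IAA14, IAA26, IAA11 and IAA28 overlapped, so their order was not set by these libraries.

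The lowest Aux/IAA genes included several that encode proteins without a degron. IAA20 (AT2G46990) had 0.760, 0.608 and 0.859 in libraries 1, 2 and 3, and IAA31 (AT3G17600) had 0.829, 0.788 and 0.806. Both encode Aux/IAA proteins that lack the degron core GWPP. IAA34 (AT1G15050), whose protein also lacks it and is regulated by a receptor-like kinase in the apical hook, had 0.944, 0.797 and 0.844.

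IAA5, IAA29 and IAA15 were also low, and their proteins hold the degron. IAA5 (AT1G15580) had 0.941, 0.720 and 0.854. IAA29 (AT4G32280), a target of phytochrome-interacting factors in shade, had 1.04, 0.973 and 0.926. IAA15 (AT1G80390) had 0.917, 0.909 and 1.16, and all of these values were below the median of protein-coding genes in the same library.

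IAA10 and IAA34 were the only members without a site in any library from 3000 bp upstream to the gene end. IAA10 (AT1G04100) had a signal of 0.985, 0.884 and 1.17, and the counts that give those values show that reads were present there. Absence of a site is therefore absence from the deposited lists and not absence of reads. IAA15 had low signal at its start but 3 shared sites farther upstream, centred 1387, 1787 and 2325 bp before the TSS.

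The other Aux/IAA genes lay between these ends. IAA9 had a mean of 2.80 ± 0.339, IAA18 had 2.21 ± 0.477, IAA8 had 2.09 ± 0.320 and IAA13 had 2.08 ± 0.343 (SD, n = 3 libraries). Closer to the median of all genes were IAA27 at 1.68 ± 0.161, IAA19 at 1.55 ± 0.101 and IAA12, or BODENLOS, which acts with ARF5 in embryonic root formation, at 1.43 ± 0.0321. IAA32 had 1.10 ± 0.158 and IAA6 had 1.02 ± 0.0430. IAA18 had the largest SD of these genes, with library 2 the highest.

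The degron, read as the letters GWPP in the proteins translated from RefSeq coding sequences, divided the Aux/IAA genes into 23 with and 6 without it (IAA20, IAA30, IAA31, IAA32, IAA33 and IAA34). Genes with the degron had a median signal of 1.84, 2.25 and 1.81 in libraries 1, 2 and 3, against 0.933, 0.836 and 1.02 for genes without it. The difference was 1.04 ± 0.328 (SD, n = 3 libraries) and positive in 3 of 3 libraries, with an exact sign-flip permutation p = 0.25. Over the region from 3000 bp upstream to the gene end it was smaller, at 0.293 ± 0.0609. A shared site lay in the TSS region of 16 of the 23 genes with the degron and of 0 of the 6 genes without it, and 45.8% of all protein-coding genes had one. IAA30 was the highest gene without the degron, with a mean of 1.45 ± 0.119 (SD, n = 3), and several genes with the degron lay below it. Median GC content was 33.9% with the degron and 35.9% without it, and the genes with it were longer (median 1.91 kb, against 1.27 kb); the part of either in the difference was not tested.

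The activator ARF genes were compared with the repressor ARF genes next. The 5 activators had a median signal of 2.00, 2.21 and 1.89 in libraries 1, 2 and 3, against 1.55, 1.87 and 1.48 for the 10 repressors. In each library the activator median was the value of a single gene, ARF8. The difference was 0.402 ± 0.0520 (SD, n = 3 libraries), positive in 3 of 3 libraries, with an exact sign-flip permutation p = 0.25. It was 0.116 ± 0.0637 when means over genes replaced medians. In the 400 bp before the TSS it was 0.182 ± 0.201 and positive in 2 of 3 libraries, and against the 7 repressors of clade B alone it was 0.228 ± 0.0637. It turned to -0.195 ± 0.0719 when the region ran from 3000 bp upstream to the gene end, so both its size and its direction depended on the region. A shared site lay in the TSS region of 3 of 5 activators and 6 of 10 repressors, and 45.8% of all protein-coding genes had one.

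ARF19 and ARF7 together control lateral root formation in auxin response, yet they stood at opposite ends of the activators. ARF19 (AT1G19220) had 2.51, 3.01 and 2.38 in libraries 1, 2 and 3, and ARF7 (AT5G20730) had 0.831, 1.00 and 0.806, the lowest mean of all ARF genes. The ARF7 gene had no shared site in its TSS region, though library 2 alone had a site across the start (chr5:7022068-7022254). ARF7 had a shared site centred 2254 bp upstream (chr5:7024338-7024529, intergenic). The fold enrichment that the authors' peak caller gives at the summit was 4.53, 5.22 and 3.66 for this shared site. For the site across the start it was 3.25 in library 2.

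ARF6 and ARF8 act in flower maturation and adventitious rooting and are both targets of a microRNA. ARF6 (AT1G30330) had 2.35, 3.3 and 2.04, and its percentile ranged from 88.4 to 96.9. ARF8 (AT5G37020) had 2.00, 2.21 and 1.89. The site across the ARF8 start (chr5:14629196-14629688), 493 bp wide and centred 11 bp upstream, had the highest fold enrichment of all shared sites of the members, at 6.35, 7.84 and 5.74. ARF5 (AT1G19850), or MONOPTEROS, which acts in embryonic root and vascular formation, had 1.63, 1.84 and 1.56.

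Among the repressors, ARF2 (AT5G62000), which acts in senescence and organ size, was highest at 2.86, 3.69 and 2.84. ARF9 (AT4G23980) had 2.69, 2.99 and 2.30, and ARF18 (AT3G61830) had 2.55, 2.81 and 2.36. Each of the 3 had at least 1 shared site in the TSS region, and none of those shared sites was centred closer than 400 bp to the TSS. ARF9 and ARF18 also had a site centred 105 and 214 bp upstream, found in libraries 2 and 3 but not in library 1. ARF2 had 1 shared site in the TSS region, centred 468 bp upstream, with a fold enrichment of 2.16, 2.66 and 2.46.

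The lowest repressors were ARF17, ARF4 and ARF16, and the RNAs of ARF16 and ARF17 are targets of another microRNA. ARF17 (AT1G77850) had 0.908, 1.02 and 1.02. ARF4 (AT5G60450), which with ARF3 is targeted by trans-acting small RNAs, had 1.19, 1.33 and 1.07. ARF16 (AT4G30080), which acts in root cap differentiation, had 1.14, 1.66 and 1.35, and library 2 was the highest for it by a margin that moved its percentile by 21.6 points.

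The percentile of ARF1 (AT1G59750) varied most between libraries, with a signal of 1.17, 1.80 and 1.32 and percentiles of 44.8, 69.9 and 54.1. IAA33 (AT5G57420), a protein without the degron that acts in root distal stem cells, came after ARF16, with 1.16, 0.875 and 1.18 and percentiles of 44.1, 26.2 and 43.8. These 3 genes changed place among all genes more than any other member. The other ARF genes had means of 1.85 ± 0.309 for ARF10, 1.81 ± 0.111 for ARF11 and 1.41 ± 0.152 for ARF3 (SD, n = 3 libraries).

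**Figure D3:**
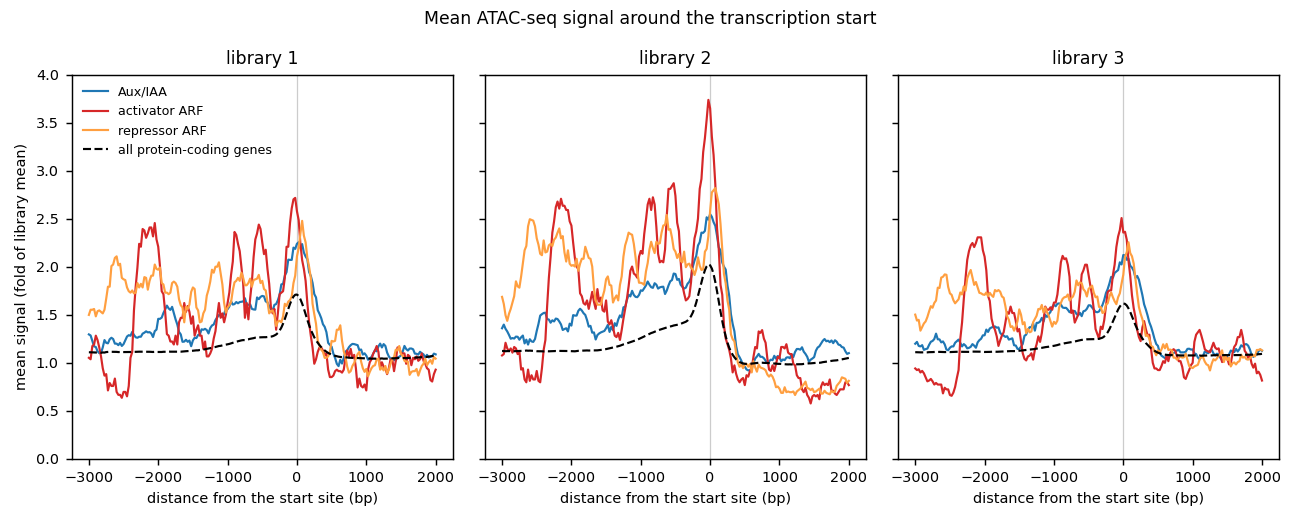
Mean signal over genes (y axis, fold of the library mean) by distance from the TSS (x axis, bp) in each library, for Aux/IAA, activator ARF, repressor ARF and all protein-coding genes. Activator ARF genes peak 25 bp before the TSS in each library, at 2.72, 3.74 and 2.51, and the repressors peak 75 bp after it.

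The mean profile around the TSS showed where reads gathered. Activator ARF genes peaked 25 bp upstream of the TSS, at 2.72, 3.74 and 2.51 in libraries 1, 2 and 3, whereas repressor ARF genes peaked 75 bp downstream, at 2.48, 2.82 and 2.25. Aux/IAA genes peaked at 2.25, 2.55 and 2.12, within 25 bp of the TSS. All protein-coding genes peaked at 1.71, 2.02 and 1.62, also within 25 bp of the TSS. Profiles of few genes are uneven, since single sites stand out in them.

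Sites were merged across libraries where they overlapped by at least 1 bp. The members had 148 merged sites, of which 79 (53.4%) were found in all 3 libraries, 29 in 2 and 40 in 1. Over the genome 46.7% of 43236 merged sites were shared. Of the 40 sites found in 1 library, 2 came from library 1, 20 from library 2 and 18 from library 3, and library 1 has the fewest sites of all.

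**Figure D4:**
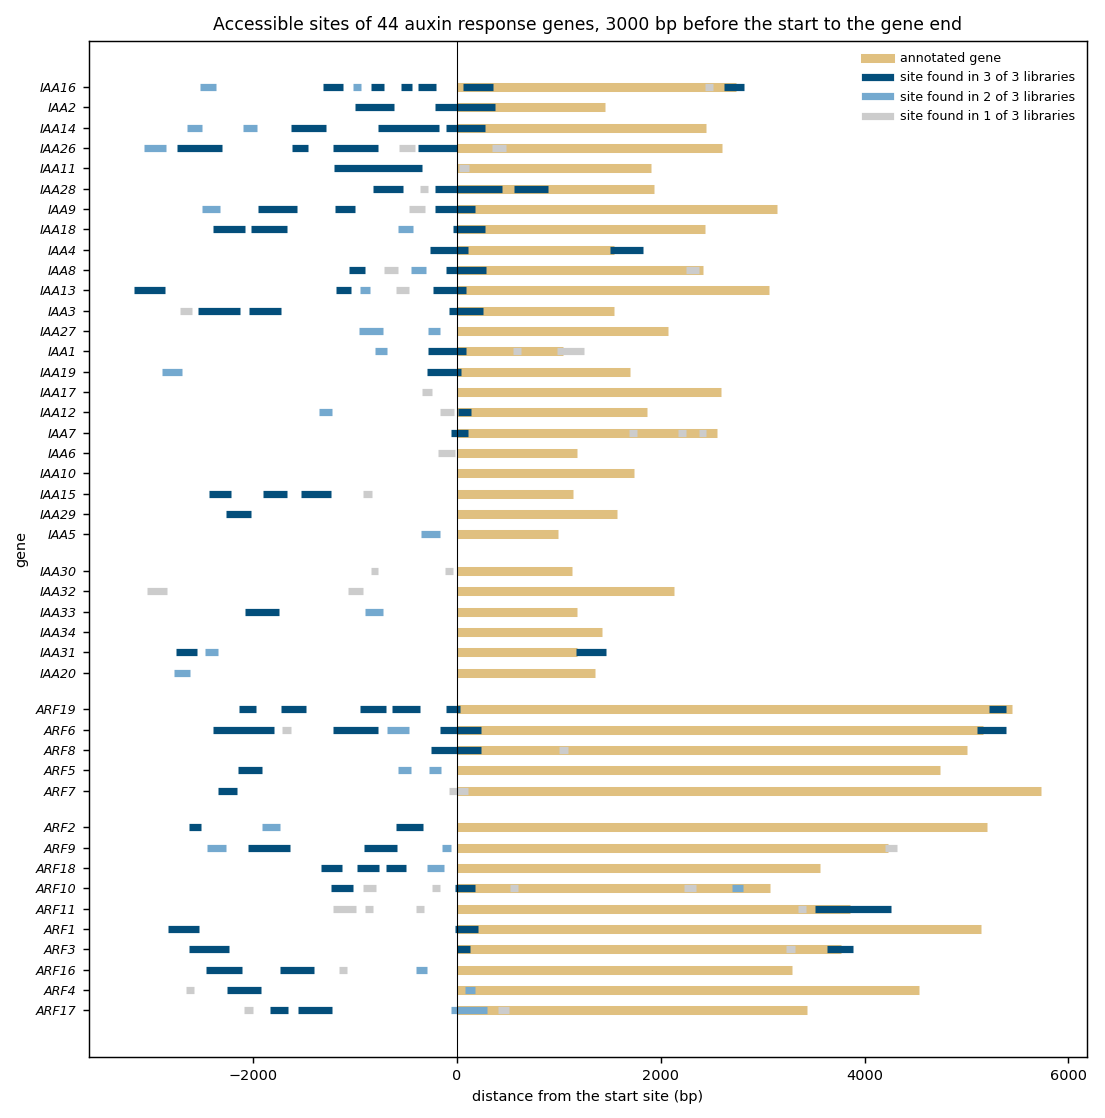
Merged accessible sites of the 44 genes (rows, ordered as in the plot of member signal) by distance from the TSS (x axis, bp), coloured by the number of libraries in which a site was found, over the annotated gene in tan. IAA16 has 9 sites and IAA10 and IAA34 have none.

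Among shared sites, distal sites made up the largest class in both families, as they did for all protein-coding genes. The distal class covers a longer stretch than each of the classes nearer the TSS, and the part of this length was not tested. Of 46 shared sites of Aux/IAA genes, 18 (39.1%) were centred more than 1000 bp upstream of the TSS, 8 from 1000 to 400 bp upstream, 7 within 400 bp upstream and 9 within the first 400 bp of the gene. Of 33 shared sites of ARF genes, 16 (48.5%) were more than 1000 bp upstream, 7 from 1000 to 400 bp, 2 within 400 bp upstream and 4 within the first 400 bp. For all protein-coding genes 36.9% were more than 1000 bp upstream and 21.7% within 400 bp upstream. All 10 repressor ARF genes had a shared site somewhere, but none of their shared sites was centred within 400 bp upstream of the TSS. They had 5 merged sites centred there, found in libraries 2 and 3 (ARF9, ARF16 and ARF18) or in library 2 alone (ARF10 and ARF11). A site upstream of a gene may belong to a neighbour: some of these sites lie within other annotated genes, such as those of ARF17 within AT1G77840.

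IAA16 had the most merged sites, 9, of which 6 were shared. The shared sites were centred from 1223 bp upstream to 2722 bp downstream of the TSS and had fold enrichments from 2.22 to 3.96. Of these 6 sites, 4 lay in the TSS region. IAA26 had 7 merged sites with 4 shared, and ARF10, another repressor that acts in the root cap, had 7 with 2 shared.

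The highest fold enrichments after ARF8, by their mean over libraries, were found upstream of IAA11, IAA33 and ARF16. The ARF16 site centred 1571 bp upstream had 5.63, 4.45 and 3.52 in libraries 1, 2 and 3. The IAA11 site (chr4:14140858-14141714), 857 bp wide and centred 777 bp upstream, had 5.15, 5.78 and 3.90. The IAA33 site centred 1915 bp upstream had 4.13, 6.17 and 3.80, although the TSS region of IAA33 had no shared site. Library 3 gave the lowest fold enrichment at each of these sites, and fold enrichment depends on the background that MACS2 estimates in a library.

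There are 3 pairs of Aux/IAA genes that are neighbours and are transcribed away from each other with no protein-coding gene between them. Other annotated genes in the gaps were not looked for. IAA3 (SHY2, which limits root meristem size) and IAA17 (AXR3, known from gain-of-function mutants with agravitropic roots) lie 6388 bp apart on chromosome 1. IAA2 and IAA7 (AXR2) lie 12510 bp apart on chromosome 3, and IAA14 and IAA1 (AXR5) lie 10732 bp apart on chromosome 4. The intervals held 6, 5 and 7 merged sites, and 4 shared sites each. Each search region reached only 3000 bp upstream, so the regions of a pair did not meet and no site common to both was to be expected.

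The genes of these pairs differed in their values. IAA3 (AT1G04240) had 1.88, 2.25 and 1.93 in libraries 1, 2 and 3, and IAA17 (AT1G04250) had 1.35, 1.48 and 1.47. IAA7 (AT3G23050) had 0.966, 1.15 and 1.14, and IAA1 (AT4G14560) had 1.64, 1.56 and 1.71. IAA2 and IAA14, given above, were higher than their neighbours in every library.

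**Figure D5:**
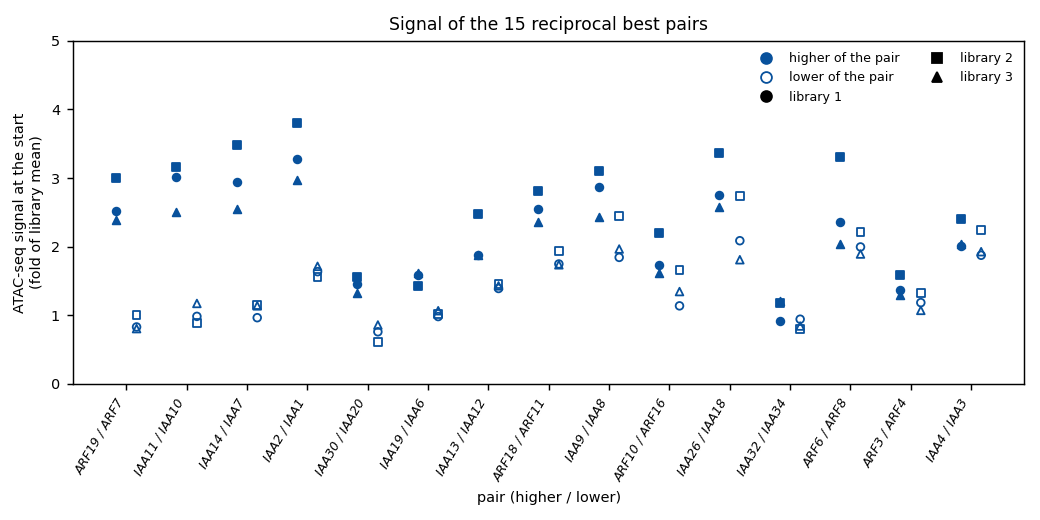
Signal of the 15 pairs of closest relatives (y axis, fold of the library mean), with the higher gene of each pair filled and the lower open, and a symbol for each library. The pairs at the left, from ARF19 and ARF7 to ARF18 and ARF11, do not overlap.

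Close relatives within each family were set side by side. Taking for each member the family member with the highest protein identity, 15 pairs were reciprocal best matches (10 Aux/IAA and 5 ARF pairs), and the 3 libraries of 8 pairs did not overlap, a smaller share than the 79.9% of all pairs of protein-coding genes. ARF19 was 2.99 times ARF7 (64.6% identity), with a difference of 1.75 ± 0.221 (SD, n = 3 libraries), and IAA11 was 2.85 times IAA10. IAA14 was 2.75 times IAA7, although their proteins are 86.0% identical, and IAA2 was 2.05 times IAA1. The higher gene was named from these values, so the direction is a description and was not tested.

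The other 7 pairs overlapped in their values, and 4 of them are given first. IAA4 (AT5G43700) had 2.01, 2.41 and 2.04, against 1.88, 2.25 and 1.93 for IAA3, so the higher gene exceeded the other by 0.133 ± 0.0239 in each library. ARF3 exceeded ARF4 by 0.218 ± 0.0365, ARF10 exceeded ARF16 by 0.468 ± 0.169, and IAA9 exceeded IAA8 by 0.714 ± 0.285. The values of these 4 pairs overlapped between libraries even though each difference had the same sign in 3 of 3. IAA26 also exceeded IAA18, by 0.687 ± 0.0750, and ARF6 exceeded ARF8, by 0.531 ± 0.494, in each library. For the last pair the sign turned, since IAA32 minus IAA34 was -0.022, 0.387 and 0.359 in libraries 1, 2 and 3.

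Auxin response elements were more frequent at the start of Aux/IAA genes than at the start of all genes. In the window from 250 bp upstream to 50 bp downstream of the TSS, TGTCTC was found in 12 of 29 Aux/IAA genes (41.4%), 1 of 15 ARF genes (ARF3) and 14.3% of all protein-coding genes. TGTCGG was found in 6 of 29 Aux/IAA genes, 2 of 15 ARF genes (ARF7 and ARF19) and 5.16% of all protein-coding genes. Either form was found in 16 Aux/IAA genes, 3 ARF genes and 18.8% of all protein-coding genes. TGTCTC was present in 7 of the 23 Aux/IAA genes with the degron and 5 of the 6 without it, whereas TGTCGG was present in 6 of the 23 and 0 of the 6. A match shows only that these letters are present in the window.

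Within sites the elements were also frequent. Of the 38 shared sites in the TSS regions of the members, 20 (52.6%) held either form, against 25.7% of the 13557 shared sites in the TSS regions of all protein-coding genes. The counts were 13 of 25 sites for Aux/IAA genes and 7 of 13 for ARF genes. Sites of the members were slightly wider (median 320 bp, against 296 bp for all), and a wider site holds more letters. The median width was 341 bp for Aux/IAA sites but 254 bp for ARF sites, and the part of width was not tested. The ARF8 site and the IAA1 site each held TGTCTC.

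The other proteins of the pathway were read in the same way. All 6 TIR1/AFB receptor genes had a shared site in the TSS region, where 45.8% of all protein-coding genes had one, and their median signal was 2.67, 3.02 and 2.34 in libraries 1, 2 and 3, against 1.25, 1.34 and 1.27 for all protein-coding genes. The 5 genes of TOPLESS and its relatives, the corepressors that Aux/IAA proteins recruit, also all had one, with a median of 2.28, 2.65 and 2.18. Of 7 GH3 genes, whose enzymes join auxin to amino acids and are induced by auxin, 6 had one, with a median of 1.89, 2.06 and 1.72. The medians of the receptor and corepressor lists were above those of both Aux/IAA and ARF genes in all 3 libraries. The lists are short, and no test was made between them.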

How the data were processed

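The files hold ATAC-seq of 3 libraries made from INTACT-purified nuclei from Col-0 roots, and all 3 formed 1 group. The paper calls the libraries biological repeats made from different amounts of nuclei, and the labels name no separate plantings or lines, so p-values measure only the spread between these libraries. The authors aligned single-end reads with Bowtie to TAIR10, kept reads with a single position and removed duplicates. They deposited raw read counts over windows of 100 bp every 25 bp, in which empty windows were left out and were set to 0 here. Any shift to the Tn5 cut site in these counts is not given in the sources used here. MACS2 sites were called by the authors in each library, and their lists give a score, a fold enrichment (a ratio), −log10 p-values and q-values, and the summit position. The deposited fold enrichment described sites, the −log10 q set stricter lists, and the deposited score was not used.

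Genes came from RefSeq (TAIR10.1), whose chromosome lengths the windows did not exceed. All 44 loci matched. A window counted in a region when its centre lay in it, and estimated reads are window sums divided by windows per read. Counting error covers sampling of reads only. The libraries are the replicates, and groups were compared by an exact sign-flip permutation test of the difference in each library. Proteins were translated from RefSeq coding sequences with Biopython 1.88 and aligned globally with BLOSUM62. Calculations used Python 3.11.15, numpy 2.4.6 and pandas 2.3.3. The region signal was tested on simulated window counts, and the permutation test and the merging and overlap of sites on small made-up cases.

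Per-library values are given for the 6 highest and 6 lowest Aux/IAA genes, all activator ARFs, the 3 highest and 3 lowest repressors, members without a site, the 3 with the most sites, the 3 with the widest percentile range, and neighbouring pairs. Relatives compared as pairs were added after their values were seen. The members and lists were chosen with earlier results of these data known.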

Additional observations from a re-analysis of the deposited data

How the results depend on the processing

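With 3 libraries of 1 group, no comparison could reach 0.05, so only directions and sizes can be followed. No paired analysis was possible because there is no second group of samples to pair with, while groups of genes were compared within each library. The sign turned in 2 settings: the signal difference of activator minus repressor ARFs was -0.20 when the region ran from 3000 bp upstream to the gene end, and the difference of the same ARF classes in sites per kb was 0.0144 when the region began 1000 bp upstream. The cause was not tested. Leaving out 1 library at a time gave signal differences of -0.31 to -0.12 for Aux/IAA minus ARF genes, 0.379 to 0.430 for activator minus repressor ARFs and 0.852 to 1.16 for Aux/IAA genes with minus without the degron. It gave differences in sites per gene of -0.998 to -0.826 for the families and 0.10 to 0.35 for the ARF classes, and in sites per kb of 0.0224 to 0.0471 and -0.051 to -0.019. By the same omissions, members with a shared site numbered 25 to 31 in the TSS region and 35 to 38 in the longer region. All protein-coding genes had shares of 46.3% to 53.6% and 65.6% to 72.5% there. The highest counts and shares both came without library 1. With sites of −log10 q of at least 3 they numbered 24 and 33, where the same lists gave 41.9% and 60.4% of all protein-coding genes. With a reciprocal overlap of 50% they numbered 20 and 32, where 33.8% and 50.8% of all protein-coding genes had such a site. Without library 1, 1 Aux/IAA gene without the degron had a shared site in the TSS region, and with a reciprocal overlap of 50% 1 had one in the longer region, against 2 otherwise. In the 500 bp before the start, chosen after seeing the data, 14 of 29 Aux/IAA genes and 5 of 15 ARF genes held an element, against 27.5% of all protein-coding genes.

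The signal difference of Aux/IAA minus ARF genes ranged from -0.36 in the 400 bp before the TSS to -0.08 with means over genes. It was -0.13 when 1 gene of each neighbouring pair was left out, and was then positive in 1 of 3 libraries. The settings that took the start of the first listed transcript, or left out IAA15 and IAA33, were chosen after seeing the data and changed no direction. For single genes, the region from 3000 bp upstream to the gene end moved the mean by more than the SD between libraries in 32 of 44 and the 400 bp before the TSS did so in 24. Dividing by the median of protein-coding genes, which rescales all genes of a library alike, is not counted here.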

Other observations

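The positions of the distal sites of activator ARF genes lay close together. A window from 2300 to 2000 bp before the TSS, drawn after these positions were seen, held the centre of a shared site in 4 of 5 activators (ARF5, ARF6, ARF7 and ARF19), against 2 of 10 repressors. The window held one in 2 of 29 Aux/IAA genes and in 5.55% of all protein-coding genes. Since the window was drawn from the activators' own sites, their count has no test.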
